A study of Mus musculus with 40 samples.

Results

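The suppressors of cytokine signalling (SOCS) family was described by its 8 genes, Cish and Socs1 to Socs7, which were the rows of the count table whose Ensembl identifiers matched these symbols. They are 8 of 43430 genes in the table, and all 8 were among the 11853 genes that passed the filter on low counts. Their transcripts were counted by RNA-seq in bone marrow-derived macrophages (BMDMs), cells that differentiate from marrow of the mouse in culture with the growth factor M-CSF, from 5 WT and 5 NDI1 mice aged 8 to 14 weeks. All mice carried Vav-iCre, a Cre recombinase expressed in blood cell lineages, and the NDI1 mice also carried a lox-stop-lox NDI1 construct in Rosa26, so that the yeast NADH dehydrogenase NDI1, which piericidin A does not inhibit, was made in blood cells. WT mice had Vav-iCre without that construct. For every mouse there was an untreated library, a library with LPS, a bacterial membrane component (100 ng per ml, 4 h), a library with piericidin A (500 nM), which blocks complex I of the respiratory chain, and a library with LPS added 30 min after piericidin A, which gave 40 libraries in 8 groups of 5 mice. The culture medium of all groups held methyl pyruvate and uridine.

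SOCS proteins are negative feedback regulators of cytokine receptors. A cytokine that binds its receptor activates JAK kinases, which phosphorylate STAT transcription factors, and STATs induce several SOCS genes. Each SOCS protein has an SH2 domain that binds phosphotyrosine and a SOCS box that recruits elongins and a cullin to mark the bound protein for degradation, and SOCS1 and SOCS3 can also block the JAK kinases directly. In macrophages SOCS1 is known for restraining interferon signalling and SOCS3 for restraining IL-6 signalling, and both are induced after LPS.

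Totals per library lay between 6950748 and 13552070 counts. The macrophage markers Adgre1, Csf1r, Cd68, Itgam, Lyz2, Mertk and Fcgr1 were expressed in every group, with a summed level between 19259 and 37714 CPM (counts scaled by library size and TMM factors), whereas the NK cell and erythroid lists did not exceed 0.152 CPM. Other lists were present at lower levels, with T cell markers at 2.23 to 14.4 CPM, B cell markers at up to 11.6 CPM, mast cell and basophil markers at up to 6.70 CPM, dendritic cell markers at 0.880 to 27.3 CPM and stromal markers at 0.844 to 109.7 CPM. The highest values of these lists, other than that of T cells, were in libraries of mouse 496. NDI1 is a yeast gene and was not among the mouse genes of the table, so the genotype labels were not checked by its level. Mice 496 (WT) and 503 (NDI1) stood apart from the other 8 mice on the second principal component. Summed neutrophil markers (6 genes) were between 376 and 2058 CPM in the 4 libraries of mouse 496 and between 385 and 658 CPM in those of mouse 503, against 12.1 to 136 CPM in the other 32 libraries. For SOCS genes and other genes named below, calls lost without both mice are given beside the results. RNA was measured in bulk, so that fewer cells of a type and less RNA per cell cannot be told apart. The 5 values of a group are given in the order of mice 449, 452, 453, 496 and 520 for WT and 447, 460, 461, 503 and 521 for NDI1.

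The promoters of Socs1, Socs3 and Cish are shown because these genes had the largest responses to LPS in the family, and because the letters of STAT-type motifs occur in them. The sequences are from RefSeq (GRCm38.p6, the mm10 build). A promoter window of 300 bases around the annotated start was found for 4 of the 8 members, namely Cish, Socs1, Socs3 and Socs4. Both strands were searched for TTCNNNGAA (the core of the gamma-activated site that STAT dimers bind), which occurred in 8.3% of 32851 windows, and for GAAANNGAA (the core of the interferon-stimulated response element), which occurred in 8.56%. Capitals mark the matches, and positions are counted from the RefSeq start. The outermost GENCODE M21 start lies 633 bases further upstream for Cish and 681 bases further upstream for Socs3, so both stretches are within the GENCODE bounds of their genes, and for Socs1 the starts are the same.
Cish, chr9:107296654-107296683, plus strand: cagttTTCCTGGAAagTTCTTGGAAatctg
Socs1, chr16:10785537-10785656, minus strand: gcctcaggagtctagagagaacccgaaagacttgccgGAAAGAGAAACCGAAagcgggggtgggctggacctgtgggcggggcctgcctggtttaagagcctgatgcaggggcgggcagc
Socs3, chr11:117969497-117969536, minus strand: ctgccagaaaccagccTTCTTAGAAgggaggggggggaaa
The stretch of Cish held 2 matches of TTCNNNGAA, which lay just after the RefSeq start. The stretch of Socs1 lay directly upstream of the gene and held 2 overlapping matches of GAAANNGAA, 83 and 77 bases upstream of the start. The stretch of Socs3 held 1 match of TTCNNNGAA, 154 bases upstream of the RefSeq start. These matches are descriptions of letters, and binding was not measured. TGATGNAA (a core bound by ATF4 and CHOP, factors of the integrated stress response) occurred in 3.97% of windows, and of the 4 members with a window it was found in that of Socs4, 108 bases upstream.

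The SOCS genes were at low to moderate levels before stimulation. Levels of different genes were compared as CPM per kilobase of exon. In untreated WT BMDMs, Socs4 was the most abundant at 6.35 ± 0.616 CPM per kilobase (SD, n = 5), followed by Socs6 at 4.69 ± 1.41, Socs3 at 3.98 ± 1.70, Socs7 at 3.60 ± 0.226 and Socs5 at 3.11 ± 0.332 CPM per kilobase. Each of these overlapped its neighbour in that order over the 5 libraries. Socs1 (1.10 ± 0.388 CPM per kilobase) lay below all of them, and Socs2 (0.117 ± 0.0477) and Cish (0.0695 ± 0.0313) were lowest and overlapped each other. After LPS the order was different, with Socs3 at 726 ± 125 CPM per kilobase, Socs1 at 111 ± 47.4 and Socs7 at 15.7 ± 4.11, and each of these 3 genes lay above the next with no overlap between libraries.

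**Figure D1:**
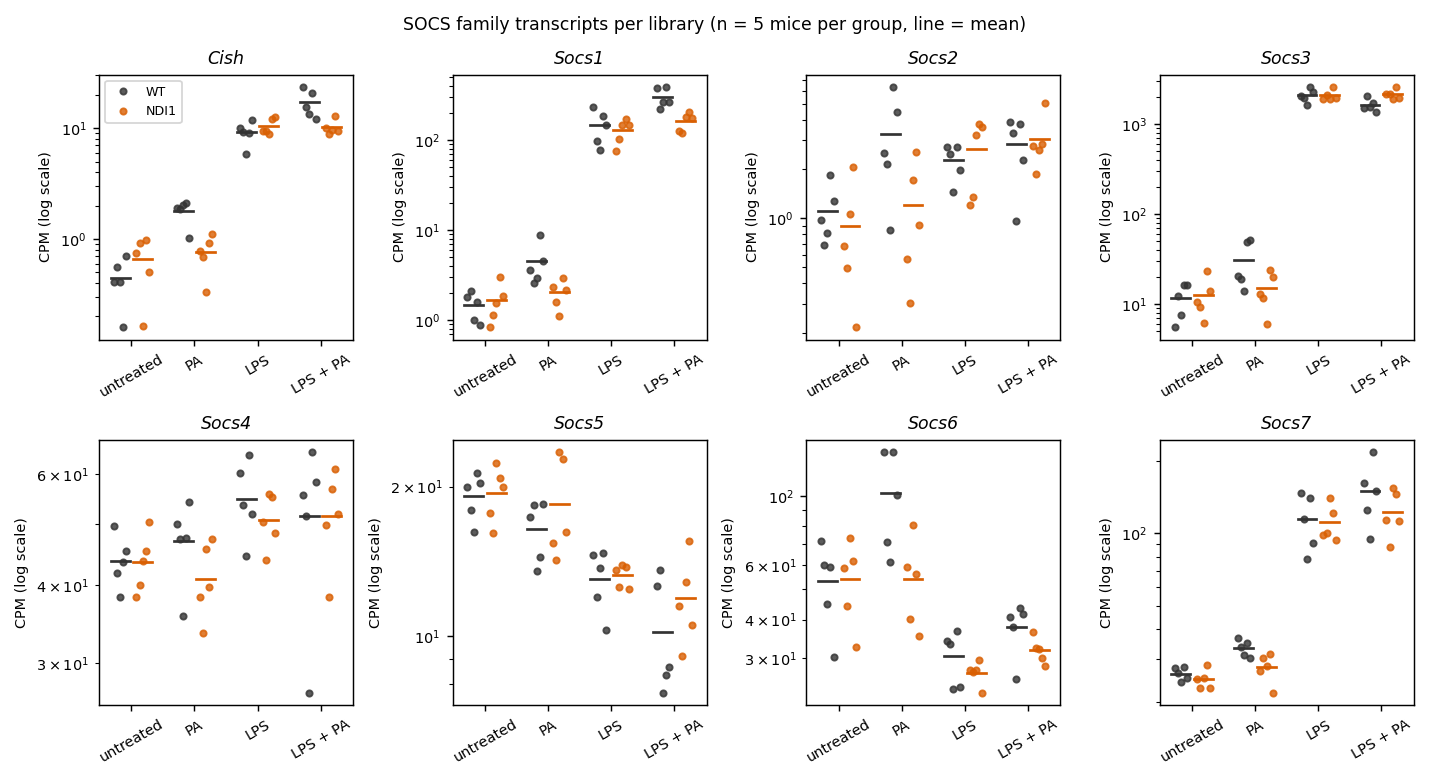
CPM of each SOCS family gene (log scale) in every library, by treatment and genotype, with the mean of 5 mice as a line (PA, piericidin A). Socs1 and Socs3 rose from at most 3.05 and 23.3 CPM in untreated libraries to at least 76.4 and 1346 CPM in those with LPS, and with both treatments Socs1 was at 219.6 to 392 CPM in WT and at 119.8 to 204 CPM in NDI1.

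LPS raised 4 and lowered 2 of the 8 SOCS genes in WT BMDMs, while 31.5% of all tested genes were called higher and 31% lower in that comparison. The median log2 fold change of the 8 members was 1.57, against −0.01 over all genes tested. Differences were tested with edgeR's quasi-likelihood test, with p-values adjusted by the Benjamini-Hochberg method over all genes tested and a threshold of 0.05. Scaling mattered for comparisons with LPS. With library totals in place of TMM factors, an alternative added after the data were seen, the median of all genes moved by −0.78 on the log2 scale in WT, and fold changes here are relative to the TMM scale. On library totals 1732 of the 11853 genes tested were called higher and 7864 lower. Of those calls 18% were higher, against 50.4% on the TMM scale. Of the members, 4 were called higher and 3 lower on library totals.

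Socs3, the inhibitor of signalling through the IL-6 receptor subunit gp130, had the largest rise. Untreated WT BMDMs had 5.46, 12.3, 7.45, 16.1 and 16.2 CPM of Socs3. With LPS, they had 2061, 1969, 1617, 2594 and 2253 CPM. The groups did not overlap, and the log2 fold change was 7.51 ± 0.42 (SE), an increase of 182-fold (adjusted p = 1.26e-17, edgeR). In NDI1 BMDMs Socs3 moved from 10.5, 9.19, 6.17, 23.3 and 14.02 CPM to 1885, 2122, 1886, 2605 and 1966 CPM, a log2 fold change of 7.38 ± 0.42 (adjusted p = 1.85e-17, edgeR).

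Socs1, the inhibitor of interferon receptor signalling, was at 1.79, 2.12, 1.02, 1.59 and 0.888 CPM in untreated WT BMDMs, which corresponded to 14 to 34 counts per library. LPS brought it to 234, 98.4, 77.9, 185 and 146 CPM. The lowest LPS library was far above the highest untreated one, and the rise was 99.7-fold (log2 fold change 6.64 ± 0.38, adjusted p = 2.3e-17, edgeR). NDI1 BMDMs had 0.830 to 3.05 CPM of Socs1 untreated and 76.4 to 172 CPM with LPS (log2 fold change 6.28 ± 0.38).

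Cish encodes CIS, an inhibitor of signalling through STAT5. It was near the limit of detection in untreated WT BMDMs, at 0.408, 0.560, 0.406, 0.159 and 0.698 CPM or 2 to 11 counts. LPS raised Cish to 10.1, 9.29, 5.80, 9.05 and 11.8 CPM, with no overlap between the groups and a log2 fold change of 4.29 ± 0.31 (19.6-fold, adjusted p = 8.99e-15, edgeR). Exons of Cish share 479 bases with Gm17041 and 261 bases with Gm17040, both annotated on the opposite strand. As the use of strand in the counting was not stated in the sources used here, reads of these genes cannot be told apart from those of Cish in these stretches.

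Socs7, a member that binds signalling adaptors, rose by a smaller amount, from 27.6, 26.2, 24.1, 27.9 and 25.0 CPM to 147, 115, 78.1, 139.8 and 91.0 CPM in WT (log2 fold change 2.12 ± 0.17, 4.36-fold, adjusted p = 3.62e-13, edgeR). Socs7 did not overlap between the groups. Socs2, the inhibitor of growth hormone signalling, was at 0.685 to 1.83 CPM untreated and 1.45 to 2.74 CPM with LPS. The difference of Socs2 was not called in WT (log2 fold change 1.02 ± 0.51, adjusted p = 0.0784, edgeR) but was higher in 5 of 5 mice.

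Socs5 and Socs6 fell with LPS. SOCS5 is known for inhibiting receptors such as that of EGF, and SOCS6 for regulating insulin receptor and KIT signalling. Socs5 was at 20.0, 17.9, 16.2, 21.3 and 20.4 CPM untreated and at 14.6, 12.0, 13.7, 14.7 and 10.3 CPM with LPS, which is a log2 fold change of −0.55 ± 0.15 (adjusted p = 0.00222, edgeR). Socs6 was at 71.9, 59.8, 45.0, 59.1 and 30.2 CPM untreated and at 34.0, 33.4, 23.9, 36.6 and 24.2 CPM with LPS, with overlap through the untreated library of mouse 520 (log2 fold change −0.80 ± 0.23, adjusted p = 0.00276, edgeR). Socs6 was lower with LPS in 5 of 5 mice. With library totals both falls were larger, at −1.33 for Socs5 and −1.60 for Socs6.

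Socs4, a close relative of Socs5, had no direction that held under both scalings. Its CPM was 38.2 to 49.6 untreated and 44.4 to 64.3 with LPS in WT (log2 fold change 0.33 ± 0.15, adjusted p = 0.056, edgeR). With library totals the log2 fold change of Socs4 was −0.46 (adjusted p = 0.00181, edgeR).

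In a fit with the mouse as a block, which pairs the 4 libraries of each mouse, 36.4% of all genes were called higher with LPS in WT, and Socs2 (adjusted p = 0.0108, edgeR) and Socs4 (adjusted p = 0.00446, edgeR) passed the threshold along with the 4 members named above. Without mice 496 and 503, Socs2 was called as well (adjusted p = 0.0439, edgeR). The endothelial markers Cdh5 and Kdr also moved with LPS. Their summed level was 2.66 to 9.81 CPM in untreated WT libraries and 20.4 to 62.8 CPM in those with LPS. Summed neutrophil and stromal markers were also higher with LPS in 5 of 5 mice of each genotype, for example from 376 to 767 CPM and from 31.4 to 71.1 CPM in mouse 496. The part of these markers in the results was not tested.

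The LPS response of the SOCS genes was also measured in NDI1 BMDMs and in the presence of piericidin A. In NDI1 BMDMs 5 members were higher and 2 lower with LPS, against 31.5% and 31.2% of all genes. The 6 members called in WT were called here in the same directions, and Socs2 was called as well (log2 fold change 1.56 ± 0.52, adjusted p = 0.00918, edgeR). Socs2 had 0.679, 0.499, 1.06, 2.06 and 0.215 CPM untreated and 1.21, 1.36, 3.24, 3.75 and 3.63 CPM with LPS in NDI1. Without mouse 521, or with library totals, the change of Socs2 was not called. A difference of the LPS effect between the genotypes was called for 0 of 8 members and 0% of all genes, of which 63 had an unadjusted p under 0.05. The differences of the members lay between −0.36 ± 0.50 for Socs1 and 0.54 ± 0.72 for Socs2 on the log2 scale.

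With piericidin A present, LPS again raised Cish, Socs1, Socs3 and Socs7 and lowered Socs5 and Socs6 in WT, where 25.8% of all genes were called higher and 26.2% lower. Socs2 differed in sign from the comparison without piericidin A (−0.18 ± 0.48) and was not called. In NDI1 BMDMs with piericidin A, 5 members including Socs2 were called higher (30.6% of all genes) and 2 lower (30.7%). Socs2 had a log2 fold change of 1.34 ± 0.50 there, which was not called without mouse 447, without mouse 521, or with library totals.

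**Figure D2:**
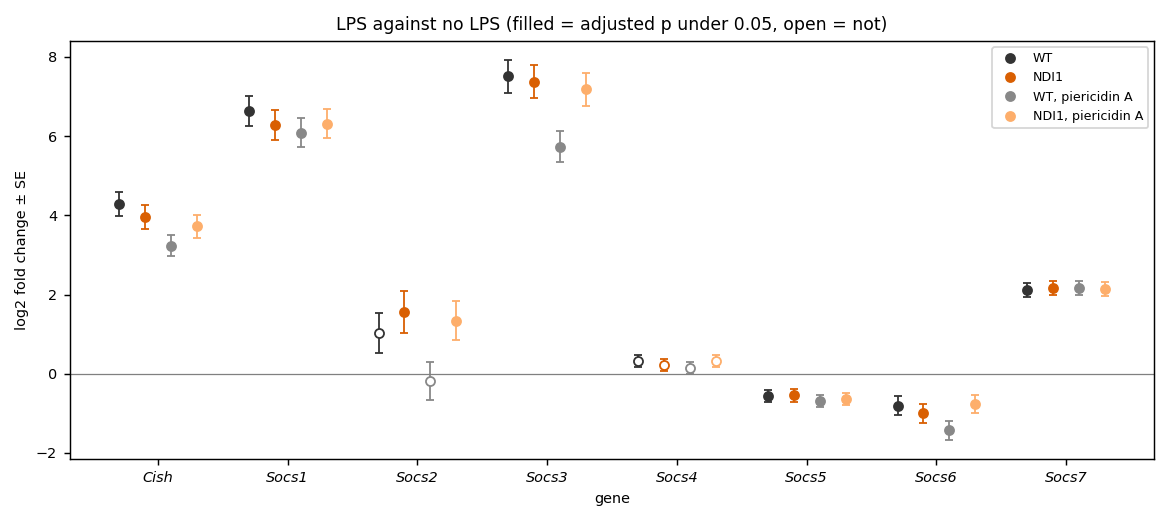
Log2 fold change with LPS (± SE) of each SOCS family gene in WT and NDI1 BMDMs, with and without piericidin A. Filled points passed an adjusted p of 0.05. Socs3 was at 7.51 in WT without piericidin A and at 5.74 in WT with it, while the points of NDI1 stayed at 7.38 and 7.18.

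In resting WT BMDMs, piericidin A alone raised 5 of the 8 SOCS genes, namely Cish, Socs1, Socs2, Socs3 and Socs6, while 7.79% of all genes were called higher. The median log2 fold change of the members was 1.17, against 0.00 over all genes tested. The rises were 1.92-fold to 3.86-fold and, for Cish, Socs1 and Socs3, smaller than those with LPS. The summed endothelial markers moved with this treatment too, from 2.66 to 9.81 CPM untreated to 10.3 to 26.0 CPM with piericidin A in WT, without overlap, and from 4.22 to 9.62 to 5.22 to 12.6 CPM in NDI1, with overlap. Summed neutrophil markers were higher with piericidin A in 5 of 5 resting WT mice, from 376 to 1274 CPM in mouse 496 and from 21.4 to 83.2 to 26.8 to 96.6 CPM in the other 4, and in 4 of 5 NDI1 mice, with 385 to 493 CPM in mouse 503. The part of these markers in the results was not tested. On library totals the same 5 members were called, while 503 of the 11853 genes tested were called higher and 1708 lower. Of those calls 22.7% were higher, against 52.5% on the TMM scale.

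Cish moved from 0.408, 0.560, 0.406, 0.159 and 0.698 CPM to 1.89, 1.88, 2.04, 2.10 and 1.03 CPM in resting WT. The groups did not overlap, and Cish was 3.86-fold higher (log2 fold change 1.95 ± 0.32, adjusted p = 5.91e-05, edgeR). The counts behind these levels were 2 to 11 and 11 to 29 per library, and the log2 fold change stayed between 1.70 and 2.30 when any 1 mouse was left out.

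Socs1 was at 3.63, 2.58, 2.95, 8.84 and 4.57 CPM with piericidin A, all above the highest untreated library at 2.12 CPM. The log2 fold change of Socs1 was 1.59 ± 0.37 (3.01-fold, adjusted p = 0.00309, edgeR). Mouse 496 had the highest of these values and also high neutrophil markers, and without it the log2 fold change of Socs1 was 1.23 (adjusted p = 0.0519, edgeR).

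Socs3 was at 20.6, 19.0, 13.9, 48.5 and 50.9 CPM with piericidin A against 5.46 to 16.2 CPM untreated. The groups overlapped through mouse 453, but Socs3 was higher in 5 of 5 mice, by a log2 fold change of 1.40 ± 0.33 (2.64-fold, adjusted p = 0.00384, edgeR). Mice 496 and 520 were well above the other 3.

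Socs6 was at 139, 71.4, 61.1, 139 and 101 CPM with piericidin A in resting WT, against 71.9, 59.8, 45.0, 59.1 and 30.2 CPM untreated. It was higher in 5 of 5 mice although the groups overlapped, with a log2 fold change of 0.94 ± 0.23 (1.92-fold, adjusted p = 0.004, edgeR). Socs6 was thus raised by piericidin A and lowered by LPS, and its level with piericidin A alone was the highest of its 8 groups, with overlap with the next group.

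Socs2 was at 2.50, 2.16, 0.842, 6.39 and 4.48 CPM with piericidin A against 0.685 to 1.83 CPM untreated, and mouse 453 showed almost no change. The log2 fold change of Socs2 was 1.54 ± 0.49 (adjusted p = 0.0294, edgeR), and it was no longer called without mouse 449, 452, 496 or 520 (adjusted p up to 0.121, edgeR), nor without mice 496 and 503 together (adjusted p = 0.0756, edgeR). With only the libraries compared in the fit, Socs2 was not called either, whereas Socs7 was called. Socs7 was at 30.3 to 36.7 CPM against 24.1 to 27.9 CPM untreated, a separation without overlap (log2 fold change 0.35 ± 0.17, adjusted p = 0.163, edgeR). With the mouse as a block Socs7 was called as a 6th member (adjusted p = 0.0222, edgeR), where 17.2% of all genes were called higher. Socs4 (0.10 ± 0.15) and Socs5 (−0.22 ± 0.15) were not called.

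In resting NDI1 BMDMs 0 of the 8 SOCS genes and 0% of all genes were called with piericidin A, with 58 at an unadjusted p under 0.05. Cish had 0.754, 0.926, 0.162, 0.986 and 0.501 CPM untreated and 0.774, 0.685, 0.331, 0.928 and 1.11 CPM with piericidin A. Socs3 had 10.5, 9.19, 6.17, 23.3 and 14.02 CPM untreated and 12.8, 11.5, 5.96, 23.9 and 20.0 CPM with piericidin A. Both groups overlapped almost completely, and the log2 fold changes of the 8 members lay between −0.09 and 0.44.

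The difference between the genotypes was tested directly. Without a block, 0 of 8 members and 1.27% of all genes differed in their resting response to piericidin A, and Cish was closest to the threshold (difference −1.76 ± 0.48 on the log2 scale, NDI1 minus WT, adjusted p = 0.0539, edgeR). With the mouse as a block, 3 of 8 members were called lower in NDI1, against 5.15% of all genes. They were Cish (−1.75 ± 0.50, adjusted p = 0.0227, edgeR), Socs3 (−1.12 ± 0.35, adjusted p = 0.0369, edgeR) and Socs6 (−0.92 ± 0.21, adjusted p = 0.00535, edgeR). Socs1 was not called (−1.22 ± 0.41, adjusted p = 0.0586, edgeR). Within mice, Cish changed by 0.456 to 2.73 log2 units in WT and by −0.35 to 0.92 in NDI1, which overlapped. Socs3 changed by 0.62 to 1.88 log2 units in WT and by −0.05 to 0.51 in NDI1, and Socs6 by 0.26 to 1.74 in WT and by −0.14 to 0.13 in NDI1, with no overlap for either of these 2 genes.

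In the comparison of NDI1 with WT in the presence of piericidin A, 4 of 8 members were lower in NDI1, against 4.31% of all genes. They were Cish (log2 fold change −1.23 ± 0.30, adjusted p = 0.00779, edgeR), Socs1 (−1.14 ± 0.36, adjusted p = 0.0408, edgeR), Socs3 (−1.04 ± 0.33, adjusted p = 0.0437, edgeR) and Socs6 (−0.91 ± 0.23, adjusted p = 0.0076, edgeR). All 4 overlapped between the genotypes. The untreated groups, by contrast, gave 0 of 8 members and 0% of all genes (39 at an unadjusted p under 0.05), with log2 fold changes between −0.33 and 0.53. Of the 4 members lower with piericidin A, Cish alone was called without mice 496 and 503, and with only the 10 libraries compared in the fit 0 were. Socs1 was not called without mouse 460, 461, 496, 520 or 521 (adjusted p up to 0.247, edgeR), nor Socs3 without mouse 447, 460, 461, 496 or 520 (adjusted p up to 0.215, edgeR).

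**Figure D3:**
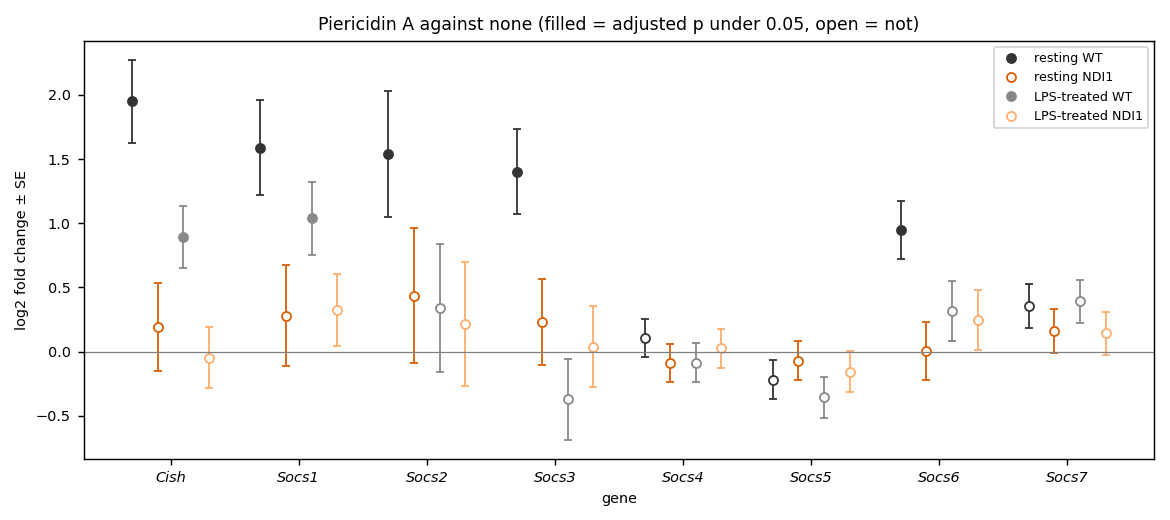
Log2 fold change with piericidin A (± SE) of each SOCS family gene in resting and LPS-treated BMDMs of both genotypes. Filled points passed an adjusted p of 0.05. In resting WT 5 members were called, in LPS-treated WT Cish and Socs1 were called, and in NDI1 all points were open.

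Among LPS-treated WT BMDMs, piericidin A raised Cish and Socs1 further, which are 2 of 8 members, while 7.81% of all genes were called higher. The median of the members was 0.33 on the log2 scale, against −0.02 over all genes tested. Summed neutrophil markers were again higher with piericidin A in 5 of 5 WT mice, from 767 to 2058 CPM in mouse 496 and from 40.4 to 99.5 to 77.1 to 136 CPM in the other 4, and in 4 of 5 NDI1 mice. Summed stromal markers were higher in 5 of 5 WT mice too, from 71.1 to 109.7 CPM in mouse 496, and lower in 4 of 5 NDI1 mice. The part of both lists in the results was not tested.

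Socs1 went from 234, 98.4, 77.9, 185 and 146 CPM with LPS to 379, 219.6, 263, 392 and 267 CPM with LPS and piericidin A. It was higher in each of the 5 mice, and the groups overlapped only through mouse 449 with LPS and mouse 452 with both treatments. The log2 fold change of Socs1 was 1.04 ± 0.28 (2.05-fold, adjusted p = 0.0101, edgeR). Cish went from 10.1, 9.29, 5.80, 9.05 and 11.8 CPM to 23.7, 15.5, 13.3, 20.6 and 12.1 CPM, without overlap (log2 fold change 0.89 ± 0.24, 1.86-fold, adjusted p = 0.00886, edgeR). In mouse 520 the change of Cish was only 0.04 log2 units. Without mouse 449, Cish was not called (adjusted p = 0.0615, edgeR).

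Socs3 did not follow Socs1 and Cish. It was at 2061, 1969, 1617, 2594 and 2253 CPM with LPS and at 1506, 2036, 1527, 1701 and 1346 CPM with both treatments. It was lower in 4 of 5 mice, with overlapping groups, and the log2 fold change of −0.37 ± 0.32 was not called (adjusted p = 0.443, edgeR). The rise of Socs3 with LPS in WT was nevertheless smaller in the presence of piericidin A, by −1.77 ± 0.46 on the log2 scale (adjusted p = 0.0173, edgeR), where 2.16% of all genes had a lower LPS effect. The terms of that difference are the 2.64-fold higher Socs3 with piericidin A in libraries without LPS and the −0.37 in those with LPS, which was not called. The change was not called without mouse 449, 496 or 520, with a highest adjusted p of 0.114 (edgeR), nor without mice 496 and 503 together. With the mouse as a block, Cish was called too (−1.06 ± 0.38, adjusted p = 0.0497, edgeR), against 9.48% of all genes.

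For Socs2, Socs4, Socs5, Socs6 and Socs7, piericidin A gave log2 fold changes of −0.36 to 0.39 in LPS-treated WT, and none was called. With the block, 4 of 8 members and 34.5% of all genes were called in either direction, with Socs7 higher (0.39 ± 0.11, adjusted p = 0.00942, edgeR) and Socs5 lower (−0.37 ± 0.13, adjusted p = 0.0313, edgeR). Socs7 had 147, 115, 78.1, 139.8 and 91.0 CPM with LPS and 162, 124, 94.97, 217 and 149 CPM with both, and was higher in 5 of 5 mice. On library totals Socs7 was called higher too, where 1006 genes in all were. Socs6 was higher in 5 of 5 mice of each genotype, by a mean of 0.31 log2 units in WT and 0.24 in NDI1.

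In LPS-treated NDI1 BMDMs 0 of 8 members and 0% of all genes were called with piericidin A (127 at an unadjusted p under 0.05). Socs1 was at 76.4, 103, 148, 172 and 147 CPM with LPS and at 127, 119.8, 179, 204 and 178 CPM with both. It was higher in 5 of 5 mice, by 0.32 ± 0.28 on the log2 scale. Cish was at 9.33, 9.49, 8.91, 12.2 and 12.7 CPM with LPS and at 10.1, 8.78, 9.68, 13.0 and 9.43 CPM with both. Socs3 was within 0.18 log2 units of its LPS level in every mouse. A change of the LPS effect itself by piericidin A was called for 0 of 8 members and 0% of all genes in NDI1 (78 at an unadjusted p under 0.05).

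A difference between the genotypes in the response to piericidin A under LPS was called for 0 of 8 members and 0.979% of all genes without the block. With it, Cish (−0.92 ± 0.26, adjusted p = 0.024, edgeR) and Socs1 (−0.76 ± 0.22, adjusted p = 0.0285, edgeR) were called lower in NDI1, against 4.81% of all genes. With both treatments, NDI1 BMDMs had lower Socs1 (log2 fold change −0.91 ± 0.28, adjusted p = 0.0288, edgeR) and lower Cish (−0.75 ± 0.24, adjusted p = 0.0339, edgeR) than WT, where 6.13% of all genes were lower. Socs1 lay between 119.8 and 204 CPM in NDI1 and between 219.6 and 392 CPM in WT, without overlap. With LPS alone 0 of 8 members and 0% of all genes were called between the genotypes (141 at an unadjusted p under 0.05). The call of Cish was lost without mouse 447, 449, 460, 496 or 521 (adjusted p up to 0.134, edgeR), and that of Socs1 without mouse 447, 449, 460, 461, 496, 520 or 521 (adjusted p up to 0.083, edgeR). Without mice 496 and 503 together, Cish was not called (adjusted p = 0.0677, edgeR).

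**Figure D4:**
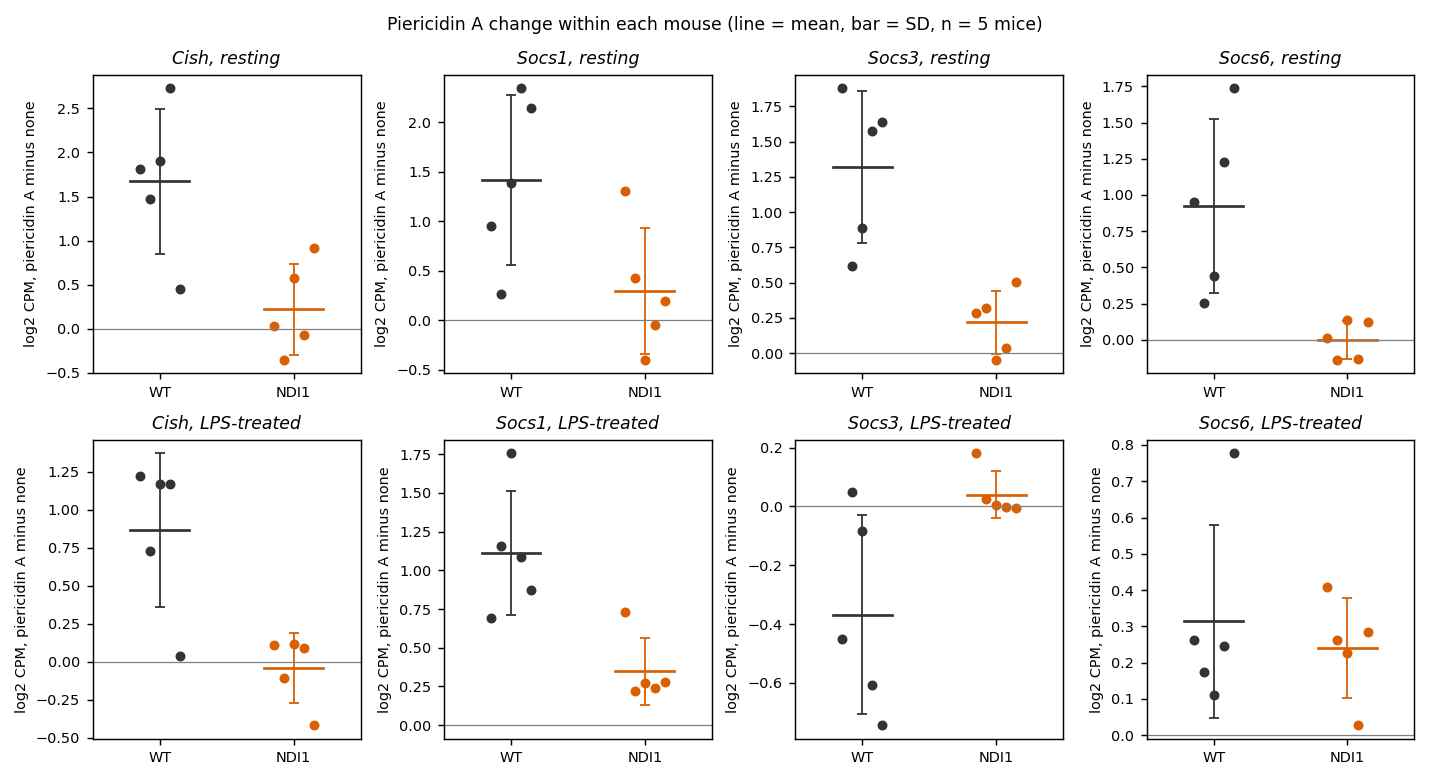
Change in log2 CPM with piericidin A within each mouse for Cish, Socs1, Socs3 and Socs6, resting (top) and LPS-treated (bottom), with the mean and SD of 5 mice. In resting WT every mouse lay above 0 for all 4 genes, and Socs3 with LPS was below 0 in 4 of 5 WT mice.

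Other genes of the cytokine and JAK-STAT pathway were taken from a list of 97 genes, of which 88 were tested. With LPS in WT, 65 were higher and 10 lower, where 31.5% and 31% of all genes were. With piericidin A in resting WT 13 were higher and 7 lower, where 7.79% of all genes were higher and 7.05% lower. Without mice 496 and 503 these counts were 7 and 2, where 537 genes in all were called higher and 372 lower. With piericidin A in LPS-treated WT 6 were higher and 13 lower, where 7.81% of all genes were higher and 8.92% lower. Without both mice the counts were 5 and 5, where 538 genes in all were called higher and 418 lower. In NDI1, 0 of 88 were called with piericidin A in either state. The median log2 fold change of the list was 1.13 with LPS in WT and 0.10 with piericidin A in resting WT. These counts depended on the scaling, and on library totals they were 44 higher and 27 lower with LPS, 9 and 17 with piericidin A at rest, and 9 and 10 with piericidin A under LPS. Of each role, up to 3 called genes with the largest change are named, and others were chosen after their values were seen.

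Among the ligands, 10 of 12 rose with LPS in WT, led by Il6, Il27 and Il12b. Before LPS these had at most 7 counts in a WT library, so their levels are given in place of fold changes. With mice 496 and 503 left out, 9 ligands were called higher, and Lif was lost. Il6 went from 0.135 ± 0.0710 to 184 ± 89.7 CPM (SD, n = 5), Il27 from 0.211 ± 0.0786 to 193 ± 95.1 CPM and Il12b from 0.149 ± 0.234 to 112 ± 64.9 CPM. Il4 fell from 10 to 20 counts per library to 0 to 4 (adjusted p = 0.000322, edgeR). Piericidin A raised 2 ligands in resting WT, Osm and Lif, which both signal through gp130. Osm went from 4.43 ± 0.473 to 40.2 ± 15.8 CPM (log2 fold change 3.18 ± 0.32, adjusted p = 4.71e-09, edgeR). Lif went from 0 to 5 counts per library to 8 to 58 (adjusted p = 0.00785, edgeR), and mouse 496 had the highest count of both groups.

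In LPS-treated WT piericidin A raised Ifnb1, Lif and Osm. Ifnb1, which encodes interferon beta, was at 0.558 to 3.13 CPM with LPS and at 8.96 to 118 CPM with both treatments, without overlap (log2 fold change 4.94 ± 0.61, adjusted p = 6.18e-06, edgeR). Lif overlapped, at 0.151 to 5.90 CPM against 0.512 to 25.0 CPM (adjusted p = 0.0475, edgeR), and Osm had a log2 fold change of 1.62. Mouse 496 held 43 of the 55 Lif counts with LPS and 198 of the 274 with both treatments. Il15 was lower (−0.48), and was not called on library totals or without mice 496 and 503. In LPS-treated NDI1 the log2 fold changes with piericidin A were 0.07 for Ifnb1, −0.23 for Lif and −0.13 for Osm, and none was called.

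Of the receptors, 14 of 21 rose with LPS in WT, led by Il15ra (6.09), Osmr (3.40) and Il13ra1 (2.81), while Il6ra (−2.18), Il6st (−1.28), Lifr (−0.78) and Ifngr1 (−0.71) fell. Osmr rose from a mean of 0.159 to 1.66 CPM, and its untreated mean was below the level of 3 counts (0.187 to 0.245 CPM). On library totals 8 receptors were higher and 7 lower. In resting WT piericidin A lowered Il6ra (−0.97 ± 0.21, adjusted p = 0.00172, edgeR) and Il10ra (−0.58), and the call of Il10ra was lost without mice 496 and 503. In LPS-treated WT it lowered 3, the interferon receptor subunits Ifnar1 (−0.81) and Ifngr2 (−0.70) and the IL-4 receptor gene Il4ra (−0.68), and raised Il6st, which encodes gp130 (0.57). Of these, Il4ra was not called without mice 496 and 503.

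The 4 JAK kinase genes were higher with LPS in WT (3 on library totals), led by Jak2 (4.44), Tyk2 (1.44) and Jak1 (1.07), as were 6 of 7 STAT genes (5 higher and 1 lower on library totals), among them Stat5a (3.45) and Stat2 (2.97). In LPS-treated WT piericidin A lowered Tyk2 (−0.59) and Jak2 (−0.57). Stat2 was lower in resting WT (−0.64 ± 0.19, adjusted p = 0.0198, edgeR). Without mice 496 and 503, Tyk2 (adjusted p = 0.0690, edgeR), Jak2 (adjusted p = 0.0844, edgeR) and Stat2 (adjusted p = 0.0737, edgeR) were not called.

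Of the 8 components of the ligase that binds the SOCS box, 5 were higher with LPS in WT on the TMM scale, led by Cul2 (1.69), Ube2f (1.24) and Eloc (0.72), but on library totals 2 were higher and 4 lower, and Eloc turned to −0.07. When mice 496 and 503 were left out 4 were higher, and Arih2 was lost. With piericidin A 0 of 8 were called without a block, with or without LPS. With the mouse as a block 1 was higher at rest, where 17.2% of all genes were. Under LPS the block gave 1 higher and 3 lower, where 15.6% of all genes were higher and 18.9% lower. Of the 14 other negative regulators 7 were higher and Pias3 (−1.02), Sh2b3 (−0.63) and Pias2 (−0.43) lower with LPS in WT, led by Usp18 (5.28), Ptpn2 (2.01) and Ptprc (1.49). On library totals 3 were higher and 9 lower. Piericidin A in resting WT raised Ptpn2 (0.50) and Pias4 (0.35), both not called on library totals, and lowered Ptpn6 (−0.60) and Pias1 (−0.39). It lowered Ptpn6 (−0.78) and Sh2b3 (−0.48) in LPS-treated WT. Without mice 496 and 503 the resting calls of Ptpn2, Pias4 and Pias1 and the call of Sh2b3 under LPS were lost, Cblb was gained as higher at rest (0.62), and Sh2b3 was not called on library totals either.

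Among 7 genes of signalling downstream of the LPS receptor, which encode adaptors, IRAK kinases and the ubiquitin ligase TRAF6, 5 were higher with LPS in WT, led by Myd88 (2.83) and Tirap (0.95), and Irak4 (−1.03) and Irak1 (−0.26) were lower, whereas on library totals 1 was higher and 4 lower. Piericidin A in resting WT raised Ticam1 (0.80) and Traf6 (0.44) and lowered Tirap (−0.63) and Irak4 (−0.40). It lowered Tirap (−0.84) and Myd88 (−0.54) and raised Traf6 (0.36) in LPS-treated WT. Without mice 496 and 503 the calls of Traf6, Tirap and Irak4 at rest and of Myd88 and Traf6 under LPS were lost, as were those of Irak1 and Ticam2 with LPS alone, which left 4 of the 7 higher and 1 lower.

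Of 15 genes known as STAT targets, 14 rose with LPS in WT, led by Cxcl10 (8.50), Gbp2 (5.58) and Isg15 (5.39). In resting WT 7 of 15 were higher with piericidin A (5 higher and 2 lower on library totals, and 3 higher without mice 496 and 503), led by Pim1 (2.54 ± 0.23, adjusted p = 5.47e-10, edgeR), Bcl2l1 (1.91 ± 0.21) and Il1rn (1.76 ± 0.27). In LPS-treated WT Nfil3 was higher (0.95), and Mcl1 (−0.41) and Sbno2 (−0.41) were lower. Without mice 496 and 503 neither fall was called, and on library totals 3 STAT targets were higher and 1 lower.

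The genes whose 8 group means were most like those of each SOCS gene were found by the root mean square (RMS) difference of centred mean log2 CPM, for the 6 members whose means spanned at least 1 log2 unit. The nearest to Socs3 were Rsad2 (RMS 0.204), Ifi205 (0.255) and Ccl5 (0.256), against a median of 3.57 over all genes. The nearest to Socs1 were Oasl1 (0.286), Ccl22 (0.336) and Tnf (0.345). Cish was nearest to Cd274 (0.192), F10 (0.196) and Stx11 (0.216). Socs7 was nearest to Dyrk2 (0.0866), Fam53c (0.0899) and Ddx4 (0.105), Socs6 to Cenpa (0.115), Lcorl (0.115) and Got1 (0.116), and Socs2 to Klf4 (0.180), P2ry2 (0.201) and Slc7a5 (0.203). The median over all genes was smaller for these members than for Socs3. It was 3.18 for Socs1, 1.87 for Cish, 1.11 for Socs7, 0.605 for Socs6 and 0.743 for Socs2. The nearest genes are descriptions over 8 group means of the same 40 libraries.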

How the data were processed

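The authors deposited a table of raw counts of reads per gene for 40 libraries. Per the study's methods, STAR aligned the reads to mm10, and HTSeq counted those in exons. Neither the annotation nor the strand setting of the counting is given in the sources used here. The table also holds 1 column of counts of reads assigned to no library, which was not used, and a length column that the authors deposited as another value, which exceeded the span of the gene for 1982 of 43430 genes. Lengths were therefore taken from the exons of GENCODE M21 within the bounds of each gene in the table. Of the 43430 genes, 42462 matched a symbol.

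The analysis used edgeR 4.0.16 in R 4.3.3. The filter filterByExpr, given the 8 groups, left 11853 genes, which were scaled by TMM and fitted with 1 mean per group and glmQLFit. Contrasts were tested with glmQLFTest at an adjusted p of 0.05 (Benjamini-Hochberg). The SE is the size of the log2 fold change divided by the square root of F. The prior count of log2 CPM was 2. Libraries of 1 mouse share a number and an animal, so the mouse was also fitted as a block. Deviations of libraries from the group means correlated between 0.0995 and 0.769 over the 60 pairs of the same mouse (59 above 0.1). Replicates differed by 9.35 to 77.3 in chi-square per degree of freedom over 80 pairs, and none was a repeat. Counts under 3 in a library cannot be told apart from absence, and this floor covers counting error only.

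The alternatives were DESeq2 1.42.0, RLE factors, no filter or at least 10 counts in every library, only the libraries compared, the block, each mouse left out, and, added after the data were seen, library totals and the omission of mice 496 and 503. The members and the gene lists were chosen with earlier results of these data known. The rule for named genes took all 8 members, at most 3 called genes of the largest change per pathway role and comparison, and the 3 nearest genes of each member whose group means spanned at least 1 log2 unit. Other pathway genes were named after their values were seen. The values of 1 gene are not reported here.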

Additional observations from a re-analysis of the deposited data

Results flagged for a closer look

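Among 64 groups of 5 libraries, 3 held a library far from the others, and chance alone marks about 1 in 20 groups. In WT BMDMs with piericidin A, Cish was lowest in mouse 520, at 1.03 CPM. In WT BMDMs with LPS and piericidin A, mouse 453 was lowest for Socs4, at 26.9 CPM, and for Socs6, at 25.8 CPM.

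The difference between the genotypes in the response to piericidin A was called for the following members in the fit with the mouse as a block and not in the edgeR fit of all libraries without it. For Cish at rest it was also called without a block by DESeq2 and when mouse 461 or mouse 520 was left out. The differences without the block, NDI1 minus WT on the log2 scale, were −1.76 for Cish, −1.17 for Socs3 and −0.94 for Socs6 in resting BMDMs. They were −0.94 for Cish and −0.72 for Socs1 in LPS-treated BMDMs.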

How the results depend on the processing

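Over 136 comparisons of single members, 2299 of 2381 values from the alternatives kept their side of the threshold, 49 lost a call, 29 gained one and 4 changed sign and became called. Of the 2299, 2216 kept their direction, and 83 changed sign with no call in either fit, at log2 values of at most 0.24 in size. The 4 that became called with the other sign were those of Socs4 with LPS under library totals, at −0.46 in WT, −0.56 in NDI1, −0.47 in WT with piericidin A and −0.43 in NDI1 with piericidin A. The depth limits Cish and Socs2, which had as few as 2 and 3 counts in an untreated library. Replicate numbers name mice, and the block could be used within mice but not for NDI1 against WT.

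Counts of members called are given with the share of all genes called in either direction under the same setting. The number of genes tested differs where the filter differs, so those shares have other denominators. With piericidin A in resting WT 5 members were called (14.8% of all genes), and 3 with at least 10 counts in every library (18.7%), where Cish and Socs2 were no longer tested. In LPS-treated WT 2 were called (16.7%), against 1 with that filter (19.5%) and 4 with the replicate block (34.5%). Differences of these responses between the genotypes gave 0 members (1.27% when resting and 0.979% under LPS), against 1 with DESeq2 (2.48%) and 3 with the block (8.96%) when resting and 2 with the block (9.51%) under LPS. The change of the LPS effect in WT gave 1 member (4.75%), 2 with the block (17.4%) and 0 without mice 496 and 503 (1.59%). NDI1 against WT with piericidin A gave 4 members (7.80%), 0 with only the libraries compared (4.31%) and 1 without mice 496 and 503 (3.89%). With LPS and piericidin A it gave 2 members (12.0%). Cish was not called with no filter (4.5%) or without mice 496 and 503 (4.88%), which left 1 member. With at least 10 counts 1 member was called as well (13.7%), and Cish was not tested. Leaving out 1 mouse at a time gave 3 to 5 members in resting WT (6.65 to 15.2%), 1 to 3 in LPS-treated WT (7.04 to 17.0%), 0 to 1 for the resting difference (0.528 to 1.68%), 0 to 1 for the change of the LPS effect (1.38 to 5.00%), 2 to 5 for NDI1 against WT with piericidin A (4.92 to 9.35%) and 0 to 2 with LPS and piericidin A (6.25 to 15.0%). The cause of these changes was not tested.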
